A study of Drosophila melanogaster with 6 samples.

Results

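The genes described here are the 3 yolk protein genes and 6 genes of the vitelline membrane of Drosophila melanogaster, followed over 6 arrays of mutant ovaries. The members were Yp1, Yp2, Yp3, Vm26Aa, Vm26Ab, Vm26Ac, Vm32E, Vm34Ca and psd, and every probe set annotated to one of them was taken. Of these 9 genes, 8 had a probe set in the annotation used here, 1 probe set each, among 11982 genes and 18952 probe sets on the array. Vm26Ab was not analysed here. All 8 probe sets passed the filter on dim signals.

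Total RNA was taken from ovaries of bam[delta86] mutants on 3 arrays and from ovaries of stwl bam double mutants on 3 arrays. Both genotypes thus lack normal bam function, and the mutation of stwl is the labelled difference between them. The stwl allele, the bam allele of the double mutant, the age of the flies and the number of ovaries per sample are not stated in the labels. The labels name the ovary as the source, while the series text speaks of its germ cells. All flies were reared on cornmeal and molasses food with dry yeast. Nothing says that the arrays of a genotype came from separate crosses, so the spread behind the p-values may be technical in part or whole. Those from limma also draw on the variance of the other probe sets.

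Yolk proteins are the storage proteins of the fly egg. They are made by the female fat body and by the follicle cells that surround each growing oocyte, and the oocyte takes them up by endocytosis through the receptor Yolkless. The vitelline membrane is the innermost layer of the eggshell, and the same follicle cells secrete its proteins in mid-oogenesis. Germ cells without bam stop before they form a differentiated cyst with an oocyte, and stwl encodes Stonewall, a DNA-associated protein that maintains germline stem cells.

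In the RefSeq gene table of the Release 6 assembly, Yp1 and Yp2 are neighbouring coding genes on chromosome X, and Yp3 lies apart from them on the same chromosome. On arm 2L, Vm26Ab, Vm26Ac, Vm26Aa and psd follow each other as 4 consecutive coding genes. Vm32E and Vm34Ca lie elsewhere on 2L, each between genes that are not members.

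One array stood apart in these genes before any comparison of genotypes. On stwl bam replicate 2 all 8 genes had their highest deposited intensity of the 6 arrays, while on stwl bam replicates 1 and 3 all 8 lay below every bam array. Results are therefore given with and without stwl bam replicate 2. The intensities below are the deposited probe set signals, and a signal cannot be set against that of another probe set. In bulk ovaries, fewer cells of a type and less RNA per cell cannot be told apart.

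**Figure D1:**
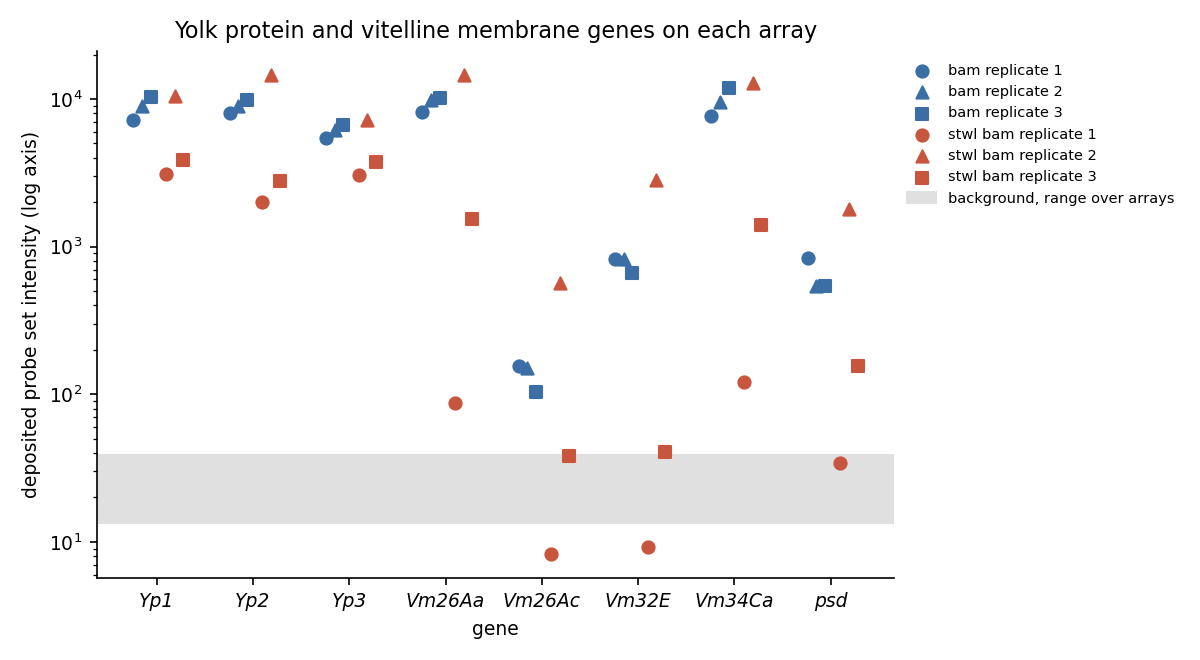
Deposited intensity (log axis) of each measured yolk protein and vitelline membrane gene on each of the 6 arrays, with bam in blue, stwl bam in red and the replicate given by the marker; the grey band spans the background levels of the 6 arrays, so a point within it can lie above the background of its own array. The bam arrays lie close together for every gene, stwl bam replicate 2 is the highest point for every gene, and stwl bam replicates 1 and 3 lie below all bam arrays.

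The yolk protein genes were bright on every array. Yp1 had intensities of 7197, 9006 and 10395 in bam replicates 1 to 3, and of 3110, 10509 and 3857 in stwl bam replicates 1 to 3. Yp2 had 8049, 8927 and 9772 in bam and 2017, 14609 and 2786 in stwl bam. Yp3 had 5424, 6163 and 6676 in bam and 3063, 7221 and 3754 in stwl bam. For each of them the bam arrays were alike, with at most 1.44-fold between the highest and the lowest, and the stwl bam arrays held both the lowest and the highest value of all 6. Among stwl bam arrays, replicate 2 exceeded replicate 1 by 3.38-fold for Yp1, 7.24-fold for Yp2 and 2.36-fold for Yp3. The neighbours Yp1 and Yp2 thus had the wider ranges and Yp3 the narrowest. The highest intensity of any probe set on stwl bam replicate 2 was 15314, so Yp2, like Vm26Aa below, lay near the top of the scale there.

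The vitelline membrane genes differed far more between the stwl bam arrays. Vm26Aa, an abundant vitelline membrane protein gene, had 8151, 9847 and 10196 in bam and 87.6, 14547 and 1539 in stwl bam. Vm34Ca, another vitelline membrane protein gene, had 7714, 9598 and 11892 in bam and 121.5, 12783 and 1406 in stwl bam. Replicate 2 of stwl bam thus exceeded replicate 1 by 166-fold for Vm26Aa and by 105-fold for Vm34Ca, while the bam arrays stayed within 1.25-fold and 1.54-fold.

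Vm32E, another vitelline membrane protein gene expressed by follicle cells, had 830.3, 822.2 and 663.6 in bam. Its stwl bam intensities were 9.2, 2821 and 40.8, and the first of them lay below the array's background of 13.5. As background of an array served the 95th percentile over 44 of its control probe sets, made for sequences that flies lack. psd, also called palisade, encodes a protein needed to organize the vitelline membrane. It had 843.2, 537.5 and 545.5 in bam and 34.4, 1794 and 155.1 in stwl bam. Vm26Ac, the dimmest member, had 155.8, 149.8 and 102.9 in bam and 8.3, 570.4 and 37.9 in stwl bam, with stwl bam replicate 1 below background. Within stwl bam, replicate 2 exceeded replicate 3 by 69.1-fold for Vm32E, 15.1-fold for Vm26Ac and 11.6-fold for psd.

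On the 2 low stwl bam arrays the vitelline membrane genes lay further below the bam mean than the yolk protein genes. On stwl bam replicate 1 the bam mean was 1.99 to 4.42 times the array's value for the yolk protein genes. It was 107 times for Vm26Aa, 80.1 times for Vm34Ca and 18.7 times for psd. With the background in place of a value below it, it was at least 57.3 times for Vm32E and at least 10.1 times for Vm26Ac. On stwl bam replicate 3 the bam mean was 1.62 to 3.20 times the value of the yolk protein genes and 3.59 to 18.9 times that of the vitelline membrane genes, with Vm32E at the upper end.

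On stwl bam replicate 2 every gene lay above the bam mean. The value there was 1.19 times the bam mean for Yp1, 1.19 times for Yp3 and 1.64 times for Yp2. It was 1.31 times for Vm34Ca and 1.55 times for Vm26Aa, 2.79 times for psd, 3.65 times for Vm32E and 4.19 times for Vm26Ac. The excess was thus within 1.64-fold for the yolk protein genes, Vm34Ca and Vm26Aa, and larger for the other 3. Yp2 and Vm26Aa lay near the highest intensity of the array, and whether the top of the scale limited their excess was not tested. The trimmed mean (219.6) and the highest intensity (10599) were lower on bam replicate 1 than on any other array. Its median of 28.6 was not, beside 26.1 on bam replicate 3. After quantile normalization stwl bam replicate 2 remained the highest array for 6 of the 8 genes, without Yp1 and Yp3. On the log2 scale used below, its excess over the bam mean was then only 0.02 for Yp1, 0.09 for Yp3 and 0.13 for Vm34Ca. It was 0.33 for Vm26Aa, 0.45 for Yp2 and 1.47 to 1.95 for the other 3.

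For the following comparisons intensities were quantile normalized and put on a log2 scale after adding 7.9, so that 1 unit is a doubling and changes of dim genes are understated. On that scale the order of the stwl bam arrays, replicate 1 lowest and replicate 2 highest, was shared by all 8 genes and by 21.7% of the 11477 probe sets kept. With replicate 2 also the highest and replicate 1 the lowest of all 6 arrays, it was found for 6 of the 8 genes and 3.83% of kept probe sets.

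The spread between arrays differed by genotype. In bam the SD of the log2 level (n = 3) ran from 0.07 for Yp1 to 0.46 for psd, with a median of 0.20 over the 8 genes, beside 0.16 over all kept probe sets. In stwl bam it was 0.90 for Yp1, 1.48 for Yp2 and 0.64 for Yp3. It was 2.62 for Vm26Ac, 2.69 for psd, 3.30 for Vm34Ca, 3.61 for Vm26Aa and 3.86 for Vm32E. The median over the 8 genes was 2.65, beside 0.21 over all kept probe sets. Without stwl bam replicate 2 the median over the 8 genes was 0.83. An SD above 1 was found in stwl bam for 6 of the 8 genes and 2.89% of kept probe sets, and in bam for 0 of the 8 genes and 1.13%.

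**Figure D2:**
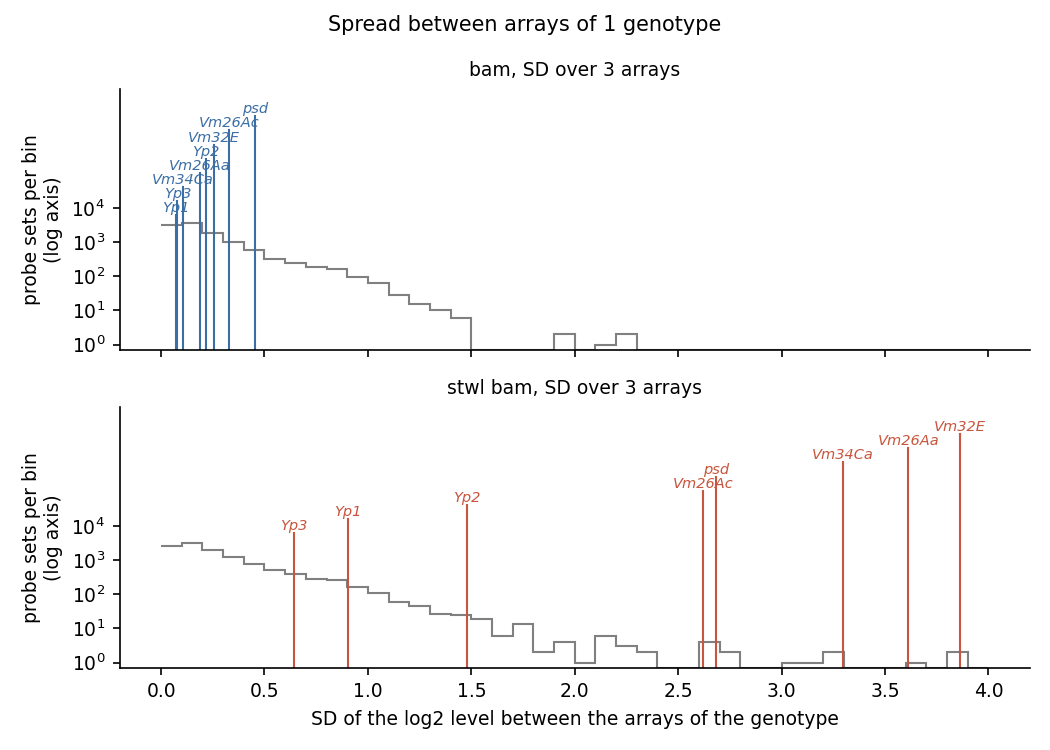
Grey outlines count all 11477 kept probe sets by the SD of their log2 level over the 3 arrays of bam (upper panel) and of stwl bam (lower panel), on a log axis and in bins of 0.1; coloured lines mark the yolk protein and vitelline membrane genes, and their heights only separate the names. The genes lie within the main mass in bam (0.07 to 0.46), while in stwl bam the vitelline membrane genes lie at the far end (2.62 to 3.86) and the yolk protein genes between (0.64 to 1.48).

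Among all kept probe sets, 1 had a larger stwl bam SD than Vm32E, 2 than Vm26Aa and 3 than Vm34Ca, 9 than psd and 12 than Vm26Ac. Yp2 was exceeded by 71, Yp1 by 484 and Yp3 by 1222. A wide spread in stwl bam did not always have the same order of arrays. Of the 332 kept probe sets with an SD above 1, replicate 2 was the highest stwl bam array for 127, replicate 1 for 141 and replicate 3 for 64.

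Differences between 2 arrays of a genotype show the same contrast. Between stwl bam replicates 1 and 2, 9.74% of kept probe sets differed by more than 1 on the log2 scale, and all 8 genes did, with a median of 5.15. Replicate 2 was above replicate 1 by that much for all 8 genes and for 4.01% of kept probe sets. Between replicates 1 and 3 it was 7.55% of kept probe sets and 5 of the genes. Between replicates 2 and 3 it was 7.22% and 7 of the genes. For the 3 pairs of bam arrays it was 4.27% to 5.35% of kept probe sets and 0 of the 8 genes.

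The comparison of genotypes asked whether these genes differ when stwl is mutated beside bam. With all 6 arrays none of the 8 genes passed in limma at an adjusted p under 0.05. Of all kept probe sets 23.2% passed, 11.2% higher in stwl bam and 12% lower. At an unadjusted p under 0.05 in limma, 3 of the 8 had lower means in stwl bam (Yp1, Yp3 and Vm34Ca). Variances in limma are moved toward those of probe sets of like intensity, so its SE and p can understate a gene's own spread. A test with each probe set's own variance called 0, with unadjusted p of 0.127, 0.166 and 0.181 for these 3. Among other scalings, limma called 2 of the 8 lower with median centring on the log2 scale and 6 when intensities were divided by the array median. That division was kept as an unplanned alternative, and the remaining scalings called 0. With division the limma adjusted p of Vm26Aa was 8.79e-05 at a change of -3.07, while the median SD of the 8 genes in stwl bam was still 2.56. The small p there thus does not mean a small spread between arrays. With estimated array weights limma called 2. The arrays of the genotypes overlapped for all 8 genes, while they did not overlap for 41.1% of kept probe sets.

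The means were lower in stwl bam for all 8 genes, with wide intervals. The log2 level of Yp1 averaged 13.23 ± 0.07 over the bam arrays and 12.22 ± 0.90 over the stwl bam arrays (SD, n = 3 each), which gave a difference of -1.005 ± 0.36 (SE) with a limma adjusted p of 0.0777. For Yp2 the difference was -1.24 ± 0.59 and for Yp3 it was -0.63 ± 0.26. Vm26Aa was at 13.35 ± 0.19 against 10.24 ± 3.61 (SD, n = 3), a difference of -3.11 ± 1.43 (SE) with a limma adjusted p of 0.154. The difference was -3.08 ± 1.30 for Vm34Ca, -2.57 ± 1.53 for Vm32E, -1.45 ± 1.08 for psd and -1.004 ± 1.05 for Vm26Ac. The adjusted p of these genes from limma ran from 0.0777 to 0.539. The 95% interval of the difference reached from -6.37 to 0.15 for Vm26Aa and from -3.41 to 1.40 for Vm26Ac, so these 6 arrays bound the difference only loosely. The median over the 8 genes was -1.34, beside -0.03 over all kept probe sets.

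Without stwl bam replicate 2, all 8 genes were called lower in stwl bam by limma, where 11.5% of kept probe sets were called lower and 10.5% higher. Yp1 was then lower by 2.86-fold, with a change of -1.52 ± 0.10 (SE) and a limma adjusted p of 6.35e-05. Yp2 was lower by 4.22-fold and Yp3 by 1.99-fold. Vm26Aa was lower by 28.3-fold, with a change of -4.82 ± 0.91 (SE) and a limma adjusted p of 0.0083. Vm34Ca was lower by 25.8-fold and psd by 7.53-fold. With values below background set to it, Vm32E was at least 20.5-fold and Vm26Ac at least 4.05-fold lower. In that setting Vm26Aa lost its call (limma adjusted p = 0.0623) and the other 7 genes passed, psd (0.0418) and Vm34Ca (0.0488) narrowly. Vm26Aa had no value below background and its change stayed at -4.82. Likewise Yp1 kept its change of -1.52, but its limma adjusted p rose to 0.00752. These p thus moved with the values of other probe sets.

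**Figure D3:**
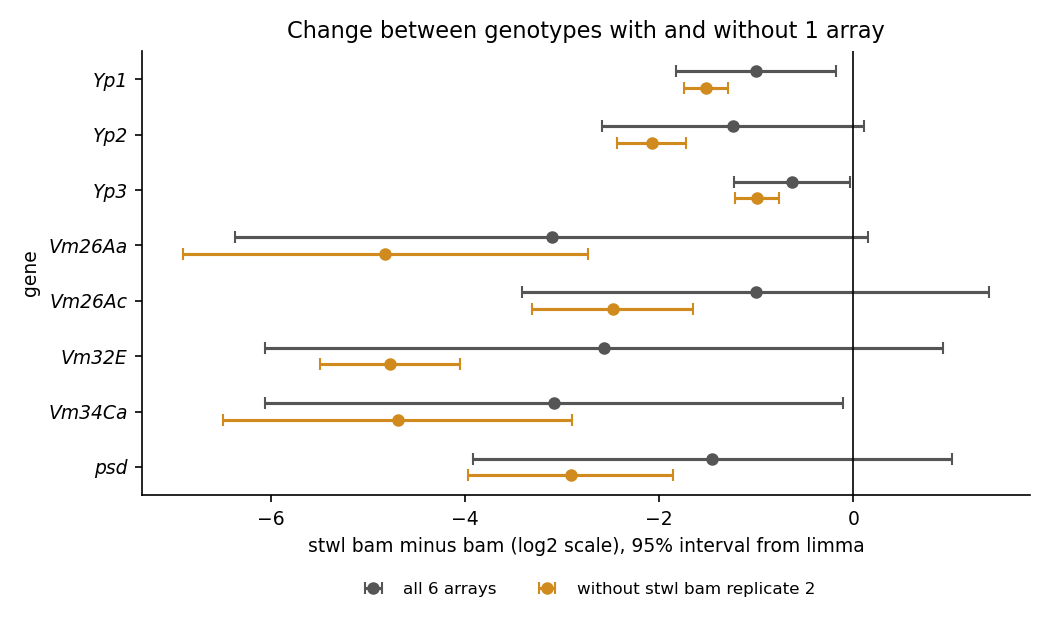
Difference in log2 level, stwl bam minus bam, for each gene with all 6 arrays (grey) and without stwl bam replicate 2 (orange); points are limma estimates and bars their 95% intervals, not adjusted for multiple tests. With all arrays the estimates run from -0.63 to -3.11 with intervals that reach or come near 0, and without the array they run from -0.99 to -4.82 with intervals wholly below 0.

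The array left out here was singled out by its values in these same genes, so the calls describe the remaining 5 arrays and do not replace the result with all arrays. Leaving out any other single array called none of the 8 in limma. Without stwl bam replicate 1 the differences were smaller: -0.67 for Yp1, -1.22 for Vm26Aa, -1.17 for Vm32E, -0.27 for psd and 0.03 for Vm26Ac.

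Markers of tissue and RNA quality were measured on the same arrays. Of 7 germline markers 6 had a probe set, and their summed intensity was 7889 to 8650 in bam and 7449 to 8638 in stwl bam, lowest on stwl bam replicate 2. Of 4 oocyte markers all had a probe set, with sums of 982 to 1062 in bam and 994.3 to 1251 in stwl bam. In limma 0 of the 4 passed, and 0 at an unadjusted p under 0.05 or in the plain test. The change was 0.27 for grk, which encodes a ligand of the EGF receptor, and -0.82 for osk, which encodes the pole plasm organizer Oskar. The osk signal was dim, with 36.2, 40 and 20.6 in bam and 14.8, 4.8 and 42.2 in stwl bam. It lay below background on 1 array of each genotype, and another kept osk probe set was at -0.35. Of 9 early somatic markers 7 had a probe set, with sums of 1761 to 2018 in bam and 1795 to 2414 in stwl bam. Of 6 kept, 0 passed in limma or in the plain test and 2 had an unadjusted p under 0.05, the transcription factor genes cas, at -0.33, and bab1, at -0.58.

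The summed signal of late follicle cell markers was highest on stwl bam replicate 2, but not all of the markers were. Of 9 such markers 8 had a probe set, and their sum was 487.5 to 1395 in bam and 375.2, 5507 and 451 on stwl bam replicates 1 to 3. Replicate 2 was the highest of all 6 arrays for 4 of the 7 kept, a count taken without its share over all kept probe sets. These 4 were Cp36, Cp38, yellow-g and yellow-g2, all of them also in the chorion or partner lists below. The kept markers outside those lists were not highest there. The genes yellow-g and yellow-g2 were named after their values were seen. With each gene represented by its brightest probe set, none of the 7 passed in limma or in the plain test, and 1 had an unadjusted p under 0.05, slbo, the C/EBP factor of migrating border cells. It was at -0.96, but lay below background on 1 bam array and 2 stwl bam arrays, and its stwl bam intensities of 17.3, 14.6 and 18.7 were lowest on replicate 2. mirr, a homeobox gene that patterns the follicle epithelium, was at -0.49, with 151, 172.7 and 189.3 in stwl bam. A dimmer probe set of mirr ran the other way and passed in limma, with 60, 112.4 and 83.9 in bam and 228.7, 204.5 and 163.8 in stwl bam, a change of 1.01. The largest shares of the sum on stwl bam replicate 2 came from Cp36 (2093) and Cp38 (2470), which are also in the chorion list below. The part of late follicle cells in the spread of the yolk and vitelline genes was not tested.

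The summed signal of fat body markers ran the other way. Of 10 markers 7 had a probe set and none was at 0, and their sum was 753.4 to 1607 in bam and 6787, 2575 and 5438 on stwl bam replicates 1 to 3. Thus stwl bam replicate 2, with the highest yolk protein signals, had the lowest sum of that genotype. In limma 3 of the 7 rose and 0 fell, beside 11.2% and 12% of all kept probe sets. Obp99c, an odorant-binding protein gene, rose by 3.51 ± 0.60 (SE), Tsf1, a transferrin gene, by 3.21 ± 0.35 and the lipophorin gene apolpp by 1.47 ± 0.23 in limma. On stwl bam replicate 1 most of the sum came from Tsf1 (2843) and Obp99c (2209). The other 4 did not pass: the storage protein gene Lsp2 was at -0.52, Fbp1 at -0.56, Fbp2 at -0.35 and apoltp at 0.11, all named after their values were seen. The part of fat body in these values was not tested.

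The 5' to 3' signal ratio of the actin control, a measure of RNA integrity, was 0.13 to 0.18 in bam and 0.524, 0.619 and 0.675 on stwl bam replicates 1 to 3. The ratio of the GAPDH control was 0.124 to 0.152 in bam and 0.374, 0.258 and 0.373 in stwl bam, and that of eIF-4a was 0.0798 to 0.108 in bam and 0.423, 0.417 and 0.448 in stwl bam. The genotypes did not overlap in any of the 3 ratios. Replicate 2 was the lowest stwl bam array for GAPDH, where it stood apart, and for eIF-4a, and lay between the others for actin. Muscle markers, with 5 of 8 on the array, summed to 1296 to 1489 in bam and 6071, 3687 and 5092 in stwl bam. In limma 3 of the 5 rose and 1 fell, and leaving out single arrays gave 2 to 3 and 0 to 1. Haemocyte markers, with all 8 on the array, summed to 3150 to 3428 in bam and 2105 to 2385 in stwl bam, and 4 of the 7 kept fell, or 3 to 5 with single arrays left out. Of the 6 kept germline markers 1 rose and 2 fell, or 0 to 1 and 1 to 2 with single arrays left out. Over all kept probe sets 11.2% were higher and 12% lower in limma. The part of the RNA ratios and of muscle, haemocytes and germline in the results was not tested. Each array had 1 value per probe set, and between 50.8% and 64.5% of them exceeded background.

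Genes whose products act with the vitelline membrane proteins were measured from a list of 15, of which 12 had a probe set and 11 were kept. With all arrays 1 of the 11 was called higher in limma and 0 lower, beside 11.2% and 12% of all kept probe sets. The median change was -0.28. The gene called was tsl, which encodes Torso-like, a protein deposited in the vitelline membrane at the egg's ends. It had 154.5, 184.5 and 163.4 in bam and 333.4, 520.4 and 411.7 in stwl bam, and rose by 1.21 ± 0.17 (SE) with a limma adjusted p of 0.00214. Unlike the 8 genes, tsl was higher on all stwl bam arrays than on any bam array, although stwl bam replicate 2 was again its highest.

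Several of these partners had the array order of the vitelline membrane genes. dec-1, a gene for eggshell proteins secreted by follicle cells, had 3579, 3192 and 3245 in bam and 239.7, 6905 and 340.5 in stwl bam. ndl, which encodes the protease Nudel of the perivitelline space, had 659.3, 511.5 and 507.5 in bam and 29.8, 774.3 and 67.9 in stwl bam. Replicate 2 was the highest stwl bam array for 10 of the 12 partners with a probe set, a count taken without its share over all kept probe sets. Without replicate 2, the array singled out by its values in the yolk and vitelline genes, 4 of the 11 were called lower in limma. They were dec-1 by 12.1-fold, ndl by 10.5-fold, pip by 2.57-fold and wbl, beside 1 called higher, tsl. Of all kept probe sets 11.5% were then called lower and 10.5% higher. The other kept probe set of pip, below background on 3 bam and 2 stwl bam arrays, was at -0.29 and did not pass (limma adjusted p = 0.64). wbl lay below background on stwl bam replicate 3. With all values below background set to it, wbl lost its call, with a change of -1.32 (limma adjusted p = 0.106). Genes without a value below background, such as Vm26Aa, also lost their call in that setting. pip encodes a sulfotransferase and wbl its chaperone, and both act in the follicle cells that mark the ventral side of the egg. Of these, pip and wbl were named after their values were seen.

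**Figure D4:**
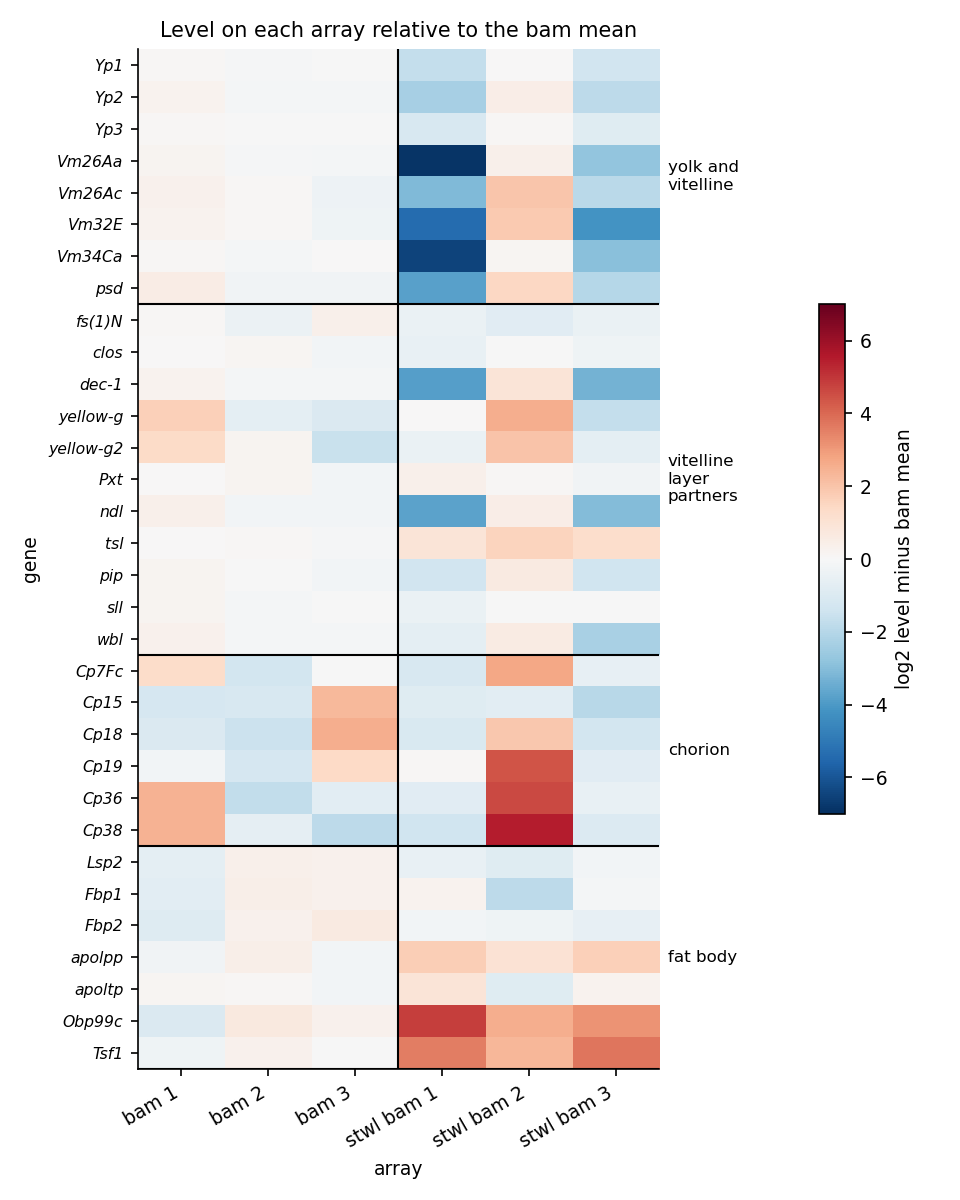
Log2 level of each gene on each array minus its mean in bam, with blue for lower and red for higher, for the yolk and vitelline genes and for the kept members of the partner, chorion and fat body lists. The yolk and vitelline genes, dec-1 and ndl are low on stwl bam replicates 1 and 3 and at or above the bam mean on replicate 2; the chorion genes vary among the bam arrays as well; Obp99c, Tsf1 and apolpp are high on all stwl bam arrays.

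Chorion genes, expressed by follicle cells after the vitelline membrane genes, showed a different spread. Of 8 chorion genes 7 had a probe set and 6 were kept. They varied within bam too, with different arrays at the top. With values below background set to it, the highest bam array exceeded the lowest by 3.01-fold to 18.1-fold, and by more than 5-fold for 5 of the 7, while for the yolk and vitelline genes it did so by at most 1.57-fold. Cp36 had 419, 21.6 and 35.1 in bam and 38.6, 2093 and 57 in stwl bam, while Cp18 had 45.4, 42.1 and 761.5 in bam and 53.4, 469.2 and 50.3 in stwl bam. Replicate 2 was the highest stwl bam array for all 7, again a count taken without its share over all kept probe sets. The median SD of the 6 kept genes was 2.08 in bam and 2.43 in stwl bam. None passed in limma, at an unadjusted p under 0.05 or in the plain test. The smallest p values belonged to Cp15, at -1.17, and Cp19, at 1.23. Cp36 and Cp18 were named after their values were seen.

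Yolk uptake genes varied less between the stwl bam arrays. Of 10 genes 7 had a probe set and were kept, with a median SD in stwl bam of 0.18. Replicate 2 was the highest stwl bam array for 5 of the 7, a count taken without its share over all kept probe sets. It is not read as a pattern shared with the yolk protein genes. In limma 2 fell and 0 rose, beside 12% lower and 11.2% higher over all kept probe sets. Chc, the clathrin heavy chain gene, fell by 0.57 ± 0.08 (SE) and AP-2alpha, a clathrin adaptor subunit gene, by 0.59 ± 0.14. AP-2alpha no longer passed when bam replicate 1 (adjusted p = 0.0817), bam replicate 2 (0.0746) or stwl bam replicate 3 (0.0729) was left out of the limma fit. The receptor gene yl, named after its values were seen, had 112.2, 101.4 and 81.1 in bam and 88.7, 92.3 and 26.7 in stwl bam, a difference of -0.82 ± 0.42 that did not pass.

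Regulators of yolk protein genes were taken from a list of 19, of which 16 had a probe set and 15 were kept. In limma 1 of the 15 rose and 2 fell, where 11.2% of all kept probe sets were higher and 12% lower, so these counts do not set the list apart. The median SD in stwl bam was 0.25. Without stwl bam replicate 2, 1 was called higher and 3 lower, beside 10.5% and 11.5% of all kept probe sets. The gene added was br, which encodes the Broad factors of the ecdysone response and was named after its values were seen. The probe set representing br had 146.4, 101.8 and 117 in bam and 33, 163.6 and 57.1 in stwl bam. That is the array order of the yolk and vitelline genes. Its change went from -0.82 with all arrays, which did not pass, to -1.39 without replicate 2 (limma adjusted p = 0.00839). Another br probe set had 172.4, 92.9 and 159.2 in bam and 98.6, 48.9 and 54.7 in stwl bam, lowest on replicate 2. With all arrays it was called lower, at -1.17 (limma adjusted p = 0.0389). With single arrays left out its limma adjusted p ran from 0.0118 to 0.148, and was 0.079 without stwl bam replicate 2. A further kept probe set of br was at -0.15 and did not pass. Kr-h1, a transcription factor gene of the juvenile hormone response, fell by 1.11 ± 0.17 (SE), and the GATA factor gene srp by 0.69 ± 0.15. srp no longer passed in limma when bam replicate 1 (adjusted p = 0.0634) or bam replicate 3 (0.0591) was left out. ftz-f1, a nuclear receptor gene, rose by 1.04 ± 0.32. It no longer passed in limma when bam replicate 1 (adjusted p = 0.146), bam replicate 3 (0.105), stwl bam replicate 1 (0.103) or stwl bam replicate 3 (0.0993) was left out. Another probe set of ftz-f1 was at -0.44. dsx, the sex-specific factor that binds yolk protein enhancers, was named after its values were seen. Its brighter probe set was at 0.14 and did not pass, while its other probe set was called lower, at -0.61 with a limma adjusted p of 0.0352. That call was lost when bam replicate 1 (limma adjusted p = 0.101), bam replicate 2 (0.12), stwl bam replicate 2 (0.0646) or stwl bam replicate 3 (0.112) was left out. Sxl, also named after its values were seen, was represented by a probe set at -0.23 that did not pass. A dimmer probe set of Sxl was called higher, at 1.02 (limma adjusted p = 0.00819). It also passed with any single array left out (0.00564 to 0.0358), but not in the plain test (adjusted p = 0.0708).

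Among 6993 other genes above background on all arrays, those most like the mean log2 level of the 3 yolk protein genes were ranked by Pearson correlation over the 6 arrays, as a description. The points share the genotypes and the contrast of stwl bam replicate 2. With genes that have only a CG number set aside, the first 5 were ndl (0.9997), dec-1 (0.99), PH4alphaEFB (0.99), Inx7 (0.99) and Ect3 (0.99). PH4alphaEFB, a prolyl 4-hydroxylase subunit gene, had 2193, 1920 and 2109 in bam and 992.7, 2306 and 1130 in stwl bam. Inx7, a gap junction innexin gene, had 342.2, 227.1 and 282.6 in bam and 50.3, 383.4 and 67.6 in stwl bam. Ect3 had 498.9, 519 and 551 in bam and 80.6, 541.3 and 82.2 in stwl bam. In all 5 stwl bam replicates 1 and 3 lay below all bam arrays. On replicate 2 Ect3 lay within the bam range, PH4alphaEFB, Inx7 and ndl lay above it, and dec-1, at 6905 against at most 3579 in bam, lay furthest above.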

How the data were processed

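Each array's deposited file gives a linear intensity for every probe set, made by the authors with GCOS per the submitters' processing notes. The settings and scaling target are not stated there. The trimmed mean intensity (2% to 98%) was 219.6 on bam replicate 1 and 248.9 to 249.8 on the other arrays. Groups and replicate numbers came from the sample titles.

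The 183 control probe sets were left out, the arrays were quantile normalized, 7.9 (the 25th percentile of deposited intensities) was added and log2 taken. Probe sets at or above the 40th percentile of their array on at least 3 arrays were kept, 11477 in all. The genotype difference was fitted in R 4.3.3 with limma 3.58.1 (lmFit, then eBayes with its variance trend on intensity). Its two-sided p-values were adjusted by Benjamini-Hochberg across the kept probe sets and called under 0.05. The code was tested on simulated data. No pair of arrays was identical.

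Of the probe sets, 13647 had 1 gene, 402 several and 4720 none, and 13544 of the 13647 matched RefSeq by gene number. dec-1 is dec there. A gene with several probe sets is represented by that with the highest mean. Sequences of the genes were not used here.

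Members and lists were chosen with earlier results of these data known. Named genes are all members; from the pathway, fat body, late follicle, oocyte and early somatic lists up to 4 passing genes with the largest change, or 2 with the smallest p where none passed; and the 5 most like the yolk protein genes. Other named genes are marked. The setting with values below background set to it and without stwl bam replicate 2 was added after seeing the data. Alternatives changed the normalization, offset, filter, prior, weights, block and test, and left out each array. Groups of 3 arrays limit the precision.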

Additional observations from a re-analysis of the deposited data

How the results depend on the processing

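The number of yolk and vitelline genes called higher was 0 under all 22 alternatives. The number called lower was 0 under all but 4: it was 2 with median centring over all probe sets (Vm26Aa and Vm34Ca), 2 with estimated array weights (Yp1 and Yp3), 6 when linear intensities were divided by the array median (all but Yp3 and Vm26Ac), and 8 without stwl bam replicate 2. Leaving out single arrays thus gave 0 to 8. With median centring over the kept probe sets alone it was 0. That alternative was chosen after seeing the data, and division by the array median was the first form of median centring run, kept here as an added alternative because centring had been planned on the log2 scale. Of 176 changes of single genes under alternatives, 156 kept direction and side of the threshold, 18 passed it, and 2 turned direction, both of Vm26Ac: to 0.17 with replicates 2 and 3 only and to 0.026 without stwl bam replicate 1, in a range of -2.48 to 0.026 over single arrays left out. The median SD of the genes in stwl bam, 2.65 with all arrays, ran from 0.83 without replicate 2 to 3.64 without replicate 3. Over all kept probe sets, 1286 were called higher and 1381 lower in limma, beside 502 and 705 with median centring over all probe sets, 490 and 662 with division by the array median, 748 and 808 with replicates 2 and 3 only, 608 and 571 with the plain test, and 706 to 1308 and 666 to 1485 with single arrays left out. The causes of these moves were not tested, and leaving out arrays also lowers their number. With intensities as deposited 1289 were called higher and 930 lower. With the replicate number as a block 1162 were called higher and 1225 lower and 0 of the 8 genes passed. After normalization, deviations of kept probe sets from their genotype mean hardly correlated between samples of the same number (-0.05, -0.03 and 0.003). The numbers were not taken as pairs. The hybridization control bioB did follow the number, with 79.9, 154.2 and 177.8 in bam and 95.2, 149.9 and 178.7 in stwl bam. Whether arrays of the same number were handled together is not stated in the labels, and the correlations cannot settle it. A block of replicate 1 against 2 and 3 was also added after seeing the data and called 0 of the 8 genes. Each member had 1 probe set, so the alternative of another probe set gave no value.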

Other observations

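Ranked by likeness to the mean log2 level of the 5 measured vitelline membrane genes, a profile chosen after seeing the data, further genes came to the front. The first with a name other than a CG number was twit, with 89.3, 97.1 and 70.2 in bam and 24.6, 131.7 and 58.9 in stwl bam. The glutathione transferase gene GstD3 had 292.8, 358.3 and 379 in bam and 95.7, 414.3 and 160.4 in stwl bam. yellow-k, a gene of the yellow family further down the ranking and named after its values were seen, had 140.5, 134.7 and 114.5 in bam and 20.7, 264.3 and 42.6 in stwl bam. Each was highest on stwl bam replicate 2 and lowest on stwl bam replicate 1.

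Genes with a wide spread in stwl bam also included ones with another order of arrays. The genes below were named after their values were seen. Cht5, a chitinase gene, had 13, 5.5 and 9.5 in bam and 2190, 78.7 and 27.2 in stwl bam, with an SD of 3.21 on the log2 scale in stwl bam. MtnB, a metallothionein gene, had 62.3, 103.6 and 84 in bam and 587.7, 49.5 and 57.2 in stwl bam, so stwl bam replicate 1 stood apart. St4, a sulfotransferase gene, had 235.5, 163.6 and 181.9 in bam and 1.2, 289 and 5.1 in stwl bam. Like the vitelline membrane genes it was highest on stwl bam replicate 2. Its values on stwl bam replicates 1 and 3 lay below background, so their order was not resolved.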
